A study of Rattus norvegicus with 10 samples.

Results

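Islet gene expression was compared between DR+/+ and JB rats, the 2 groups of the BB (BioBreeding) stock that carry no mutation at the lyp locus. The comparison took the 2 DR+/+ arrays minus the 2 JB arrays, 4 of the 10 arrays of the series, over 31042 of the 31099 probe sets, leaving out the 57 control probe sets of the array maker. Both groups are labelled as diabetes inducible, which for BB stocks means that the animals stay free of diabetes unless it is provoked, and the strain labels call both resistant. The animals were 40 days old. The other 6 arrays came from JBlyp/lyp rats, diabetes prone and homozygous for the lyp mutation, and from F344 and F344lyp rats, control animals without and with the mutation, with 2 arrays each. They entered the fit through the spread between replicates and served as a reference for levels.

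Some limits come with these groups. Per the protocols, DR+/+ and JBlyp/lyp animals came from DRlyp/+ breeding pairs, and the sources used here do not say how JB relates to DR. The rats were kept at sites in Seattle and in Wisconsin, and which group came from which site is not stated, so stock, site and day of isolation cannot be told apart. The protocol limits islet isolation to fasted male animals for DR+/+, F344 and F344lyp/lyp, and does not name JB. The labels call the 2 arrays of a group biological replicates without saying whether an array holds 1 animal or a pool. The brightest probe set annotated to Xist, the transcript that silences an X chromosome in females, read between 10.06 and 12.16 on all 10 arrays. It was lower in DR+/+ than in JB (-1.09, SE 0.2, adjusted p = 0.00306), whose arrays lay above the other 8. The dimmer Xist probe sets went the other way, at 0.4, 0.56 and 0.31, and none was called, so a difference in Xist itself is not shown. Of the genes of the Y chromosome, Eif2s3y and Sry lay between 2.34 and 3.46 on all arrays and Uty between 8.37 and 9.13, so that the arrays did not settle the sex of any group.

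Pancreatic islets are clusters of hormone-secreting cells set in a bed of capillaries. Beta cells, the most frequent type in rodents, take up glucose through the transporter Slc2a2, close the potassium channel made of Kcnj11 and Abcc8, and release insulin from dense granules that also hold prohormone convertases and granins. Collagenase digestion frees islets from the enzyme-secreting acinar tissue, and a preparation can also carry duct, vessel, fibroblast and mesothelial cells, the last being the covering of the organ's surface. Since the RNA is from whole preparations, fewer cells of a type and less RNA per cell cannot be told apart.

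Levels below are log2 intensities from RMA, a method that normalizes and summarises the probes of a probe set, and they describe the share of a transcript in the labelled RNA. A difference of 1 is a 2-fold difference. The table runs from 2.16 to 14.37, and its 10th percentile is 3.25. A level below that percentile may be background, so that a fold against it understates the true one. The DR+/+ replicates correlated at 0.991 and the JB replicates at 0.985 across probe sets. JB arrays had mean correlations of 0.984 to 0.988 with the 2 JBlyp/lyp arrays, and DR+/+ arrays of 0.915 to 0.94 with those of each other group. The gap between the 3 prime and 5 prime control probe sets of Gapdh, a measure of RNA integrity and labelling, was 3.18 and 3.39 in DR+/+ and 3.71 and 3.31 in JB. For Actb it was 2.57 and 2.86 in DR+/+ against 4.17 and 3.4 in JB, so that the DR+/+ arrays had the smaller Actb gap and the Gapdh gaps overlapped.

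In limma, 8793 probe sets (28.3%) differed at a Benjamini-Hochberg adjusted p under 0.05, of which 4028 (13.0% of those tested) were higher and 4765 (15.4%) lower in DR+/+. With each gene taken by its brightest probe set, 4833 of 14217 genes (34.0%) were called, 2210 higher (15.5%) and 2623 lower (18.4%), with a median difference over all genes of -0.04. The counts of each gene list below are to be read beside these shares. The differences were often large: 1076 genes were higher and 1158 lower by at least 1 on the log2 scale, 169 and 173 by at least 2, and 23 and 15 by at least 3. Of the called genes, 4132 (85.5%) had both DR+/+ arrays outside the range of the 8 other arrays, against 6094 of all 14217 genes (42.9%). Both JB arrays lay outside the range of the other 8 for 250 called genes (5.17%), against 3.92% of all genes. These positions are a description of the same arrays that made the calls.

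Of the 15 characterised genes with the largest rises in DR+/+, 4 stand in the mesothelial list and 1 in the duct list. The last, Slc26a3, a chloride and bicarbonate exchanger of gut and duct epithelium, had the largest rise and read 8.1 and 8.05 in DR+/+ and 3.39 and 3.38 in JB, a 25.8-fold difference (log2 difference 4.69, SE 0.17, adjusted p = 2.75e-06). The JB levels lie close to that 10th percentile, and the 6 other arrays reached at most 4.37. Upk1b, a membrane plaque protein of urothelium and mesothelium, read 10.7 and 10.92 against 6.8 and 6.4 (18.5-fold, log2 difference 4.21, SE 0.16, adjusted p = 3e-06). Bnc1, an epithelial transcription factor of mesothelium, read 7.95 and 7.53 against 3.82 and 3.25 (4.20, SE 0.22, adjusted p = 6.17e-06). All 3 genes were higher in both DR+/+ arrays than in any of the other 8 arrays.

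The remaining 12 of the 15 largest rises lay between 3.21 and 3.82. Slc16a1, a lactate and pyruvate transporter that healthy beta cells keep silent, read 9.15 and 9.31 in DR+/+ and 4.97 and 5.85 in JB (3.82, SE 0.32, adjusted p = 2.73e-05). Wt1, the transcription factor that marks mesothelium, read 8.12 and 7.91 against 4.31 and 4.57 (3.58, SE 0.24), and Ptgs2, the inducible cyclooxygenase that makes prostaglandins, 7.17 and 7.45 against 3.75 and 4.19 (3.34, SE 0.22). Others of the 15 were Scel at 3.71, Cldn8, a tight junction claudin, at 3.58, Pof1b at 3.49 and Mpzl2, a cell adhesion protein, at 3.36. Olr1, a scavenger receptor for oxidised lipoprotein, stood at 3.59, Sbspon at 3.37, Wfdc21 at 3.31, Gpm6a, a membrane glycoprotein of neurons and mesothelium, at 3.24 and Slc39a8, a zinc and manganese importer, at 3.21. Of all 15, none had a DR+/+ array within the range of the other groups.

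Of the 15 largest falls, 1 gene stands in the beta cell list and 2 in the secretory granule list. C2cd4b, a nuclear protein in none of the lists, had the largest fall and read 5.11 and 4.65 in DR+/+ and 9.85 and 8.9 in JB, a 22.6-fold difference (-4.50, SE 0.39, adjusted p = 3.31e-05). Prlr, the prolactin receptor that drives beta cell growth in pregnancy, read 5.87 and 6.96 against 10.82 and 10.48 (-4.24, SE 0.32, adjusted p = 1.6e-05). The 2 dimmer probe sets of Prlr differed by less, at -0.56 and -1.16, and were also called lower. Resp18, an endocrine secretory protein, read 9.31 and 9.36 in DR+/+ and 13.16 and 12.62 in JB (-3.55, SE 0.3), with the DR+/+ arrays again below all others.

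**Figure D1:**
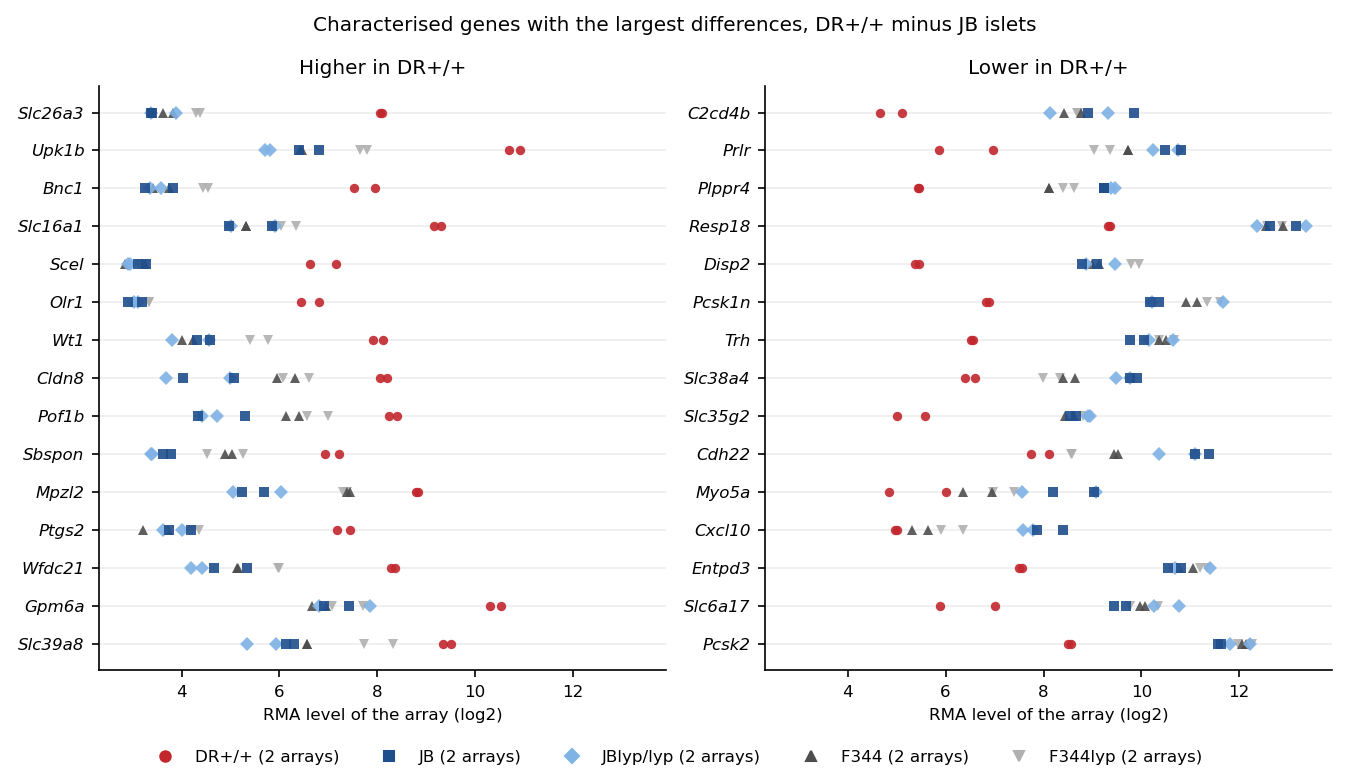
RMA level (log2, horizontal axis) of the 15 characterised genes with the largest called rises and the 15 with the largest called falls in DR+/+ against JB, one point for each of the 10 arrays, with groups by colour and marker. The DR+/+ arrays lie outside the range of the other 8 for all 30 genes, and for some, such as Cxcl10, Prlr and Plppr4, the JB and JBlyp/lyp arrays also lie above the F344 and F344lyp arrays.

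Among the other falls, Pcsk1n, the inhibitor of prohormone convertase 1, stood at -3.41, Pcsk2, the convertase that trims proinsulin and proglucagon, at -3.06, Trh, which encodes thyrotropin-releasing hormone and is made by islets of young rodents, at -3.37, and Myo5a, a motor that carries granules, at -3.19. The rest included Plppr4 at -3.78, Disp2 at -3.53, Slc38a4, an amino acid transporter, at -3.34, Slc35g2 and Cdh22, a cadherin, at -3.32 each, Entpd3, an ectonucleotidase of beta cells, at -3.15 and Slc6a17 at -3.13. Cxcl10, an interferon-induced chemokine, stood at -3.15 and is described with the immune genes. Adjusted p-values of these 15 falls ran from 2.75e-06 for Plppr4 to 0.00121 for Myo5a.

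Genes that define the beta cell were lower in DR+/+ as a group. Of the 26 measured genes of the beta cell list, 23 were called lower and 1 higher, with a median difference of -1.73, where 18.4% of all genes were lower and the median of all genes was -0.04. The mean level of the list was 8.17 and 8.24 in DR+/+, 9.98 and 9.92 in JB, and between 9.64 and 10.06 on the 6 other arrays. The DR+/+ arrays stood apart and JB lay among the other groups. The counts were within 1.5 times of these when any 1 of the 4 arrays was left out.

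The insulin genes themselves differed little. Ins1 read 13.87 and 13.86 in DR+/+ and 14.2 and 14.18 in JB (-0.33, SE 0.12, adjusted p = 0.0674, not called), and Ins2 13.42 and 13.42 against 13.9 and 13.9 (-0.48, SE 0.13, adjusted p = 0.0182). The groups did not overlap for either gene, the call of Ins2 was lost without any 1 of the 4 arrays (adjusted p = 0.0618 to 0.072) and after quantile normalization (-0.18, adjusted p = 0.319), and all these levels lie close to the top of the table at 14.37, where an array responds little to more RNA. Iapp, the amyloid peptide released with insulin, read 10.72 and 10.54 in DR+/+ against 12.64 and 12.17 in JB (3.42-fold lower, -1.77, SE 0.27, adjusted p = 0.000858). Slc2a5, a fructose transporter, was the other member without a call (-0.38, SE 0.13, adjusted p = 0.0593; 0.0485 after quantile normalization).

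Transcription factors of the beta cell were lower by 3.09-fold to 7.02-fold. Nkx2-2 read 6.79 and 6.56 in DR+/+ and 9.28 and 9.7 in JB (7.02-fold, adjusted p = 1.43e-05). Pdx1, the master regulator of pancreas and beta cell, read 7.05 and 6.8 against 8.86 and 8.36 (3.21-fold, -1.68, SE 0.22, adjusted p = 0.000323), Isl1 6.23 and 6.5 against 8.85 and 8.57 (5.09-fold), and Nkx6-1 8.1 and 8.08 against 10.26 and 10.63 (5.1-fold). Mafa, which switches on insulin in mature beta cells, read 10.47 and 9.99 against 11.42 and 12.29 (-1.63, SE 0.36, adjusted p = 0.00713), with the wide JB spread seen in its error, and its call was lost without DR+/+ replicate 2 (-1.39, adjusted p = 0.063). For each of the 5 factors both DR+/+ arrays lay below both JB arrays, and the 2 groups were likewise without overlap for all 4833 called genes.

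The glucose-sensing steps moved the same way. Slc2a2, the glucose transporter, read 9.69 and 9.56 in DR+/+ and 12.49 and 12.73 in JB (7.93-fold, adjusted p = 1.14e-05). Abcc8, the sulphonylurea receptor, read 5.5 and 5.73 against 8.94 and 8.19 (7.72-fold), Kcnj11, the pore of the same channel, 8.76 and 9.42 against 11.53 and 10.77 (4.17-fold), and Glp1r, the receptor for the incretin hormone, 6.31 and 6.25 against 9.21 and 8.89 (6.83-fold). The exception was Adcyap1r1, a receptor for the neuropeptide PACAP, which read 8.84 and 8.48 in DR+/+ and 7.9 and 7.92 in JB (0.75, SE 0.15, adjusted p = 0.00391). It was the only called member of the list with higher levels in DR+/+.

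Hormones and markers of the other endocrine cells were also lower. Of 23 measured genes, 15 were lower and 3 higher, with a median of -1.13 and list means of 6.89 and 6.86 in DR+/+ against 7.74 and 7.77 in JB. Gcg, glucagon of alpha cells, read 11.19 and 11.27 in DR+/+ and 13.15 and 13.26 in JB (3.92-fold lower, -1.97, SE 0.17, adjusted p = 3.54e-05). Sst, somatostatin of delta cells, read 10.53 and 10.51 against 12.86 and 12.65 (4.69-fold lower, -2.23, SE 0.18), and Ppy, pancreatic polypeptide, 10.26 and 10.48 against 12.7 and 12.15 (4.16-fold lower, -2.06, SE 0.3). All 3 hormones were lower in DR+/+ by more than the insulin genes, a contrast between probe sets at different places on the scale that was not tested. Casr, the calcium-sensing receptor, stood at -2.72, and Gc, the vitamin D binding protein of alpha cells, at -2.38. The 3 genes that were higher are also expressed outside the endocrine cells: Dpp4, a peptidase of many epithelia, at 1.77, Hhex, a delta cell and endothelial factor, at 1.25, and Ttr, the thyroxine carrier, at 0.87.

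Secretory granule and exocytosis genes were lower in 28 of 38 cases and higher in 1 (median -1.10), with list means of 7.23 and 7.21 in DR+/+ and 8.39 and 8.43 in JB. Chga, the granin that packs granules, read 9.17 and 9.08 against 11.94 and 11.52 (6.1-fold lower, adjusted p = 3.13e-05), Ptprn, a granule membrane protein and autoantigen of type 1 diabetes, 7.62 and 7.54 against 9.6 and 10.3 (5.17-fold lower), and Syt4, a synaptotagmin, 6.76 and 7.05 against 9.14 and 9.24 (4.86-fold lower). Both DR+/+ arrays were below the other 8 for each. Cadps2, a priming factor that many tissues express, was the one member called higher (8.21 and 8.57 against 6.47 and 6.89, 3.27-fold). Among ion channels, 16 of 32 were lower and 2 higher (median -0.71). The median was -0.28, with 12 lower, when a gene was read by the median of all its probe sets, and -1.38, with 15 lower, over genes with a mean level of at least 6. Kcnma1, the large calcium-activated potassium channel, stood at -2.23, the sodium channel genes Scn2b and Scn9a at -2.05 and -1.94, and Cacna2d1, a calcium channel subunit, at -1.78. The 2 higher were Kcnq1 at 1.70 and Trpm4 at 0.75, and the call of Trpm4 was lost without DR+/+ replicate 1, DR+/+ replicate 2 or JB replicate 2 (0.41 to 0.92).

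Genes that mature beta cells normally keep off were higher. Of 24 measured genes of this disallowed list, 17 were higher and 0 lower (median 0.98), with list means of 9.02 and 9.1 in DR+/+ and 8 and 8.07 in JB. Of the 24, 8 also stand in another list, such as Cxcl12 and Pdgfra in that of fibroblasts, so the list does not describe beta cells alone. Besides Slc16a1, Cxcl12, a chemokine of stromal cells, read 11.35 and 11.25 against 9.22 and 8.99 (4.57-fold), Ndrg2 10.28 and 10.39 against 8.78 and 8.32 (3.45-fold) and Cd44, the hyaluronan receptor, 8.02 and 8.01 against 6.38 and 6.21 (3.29-fold). Ldha, lactate dehydrogenase, differed by less (8.82 and 8.76 against 7.92 and 8.12, 0.77, SE 0.16, adjusted p = 0.00513), and its DR+/+ levels lay within those of the F344 groups, which reached 9.66.

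**Figure D2:**
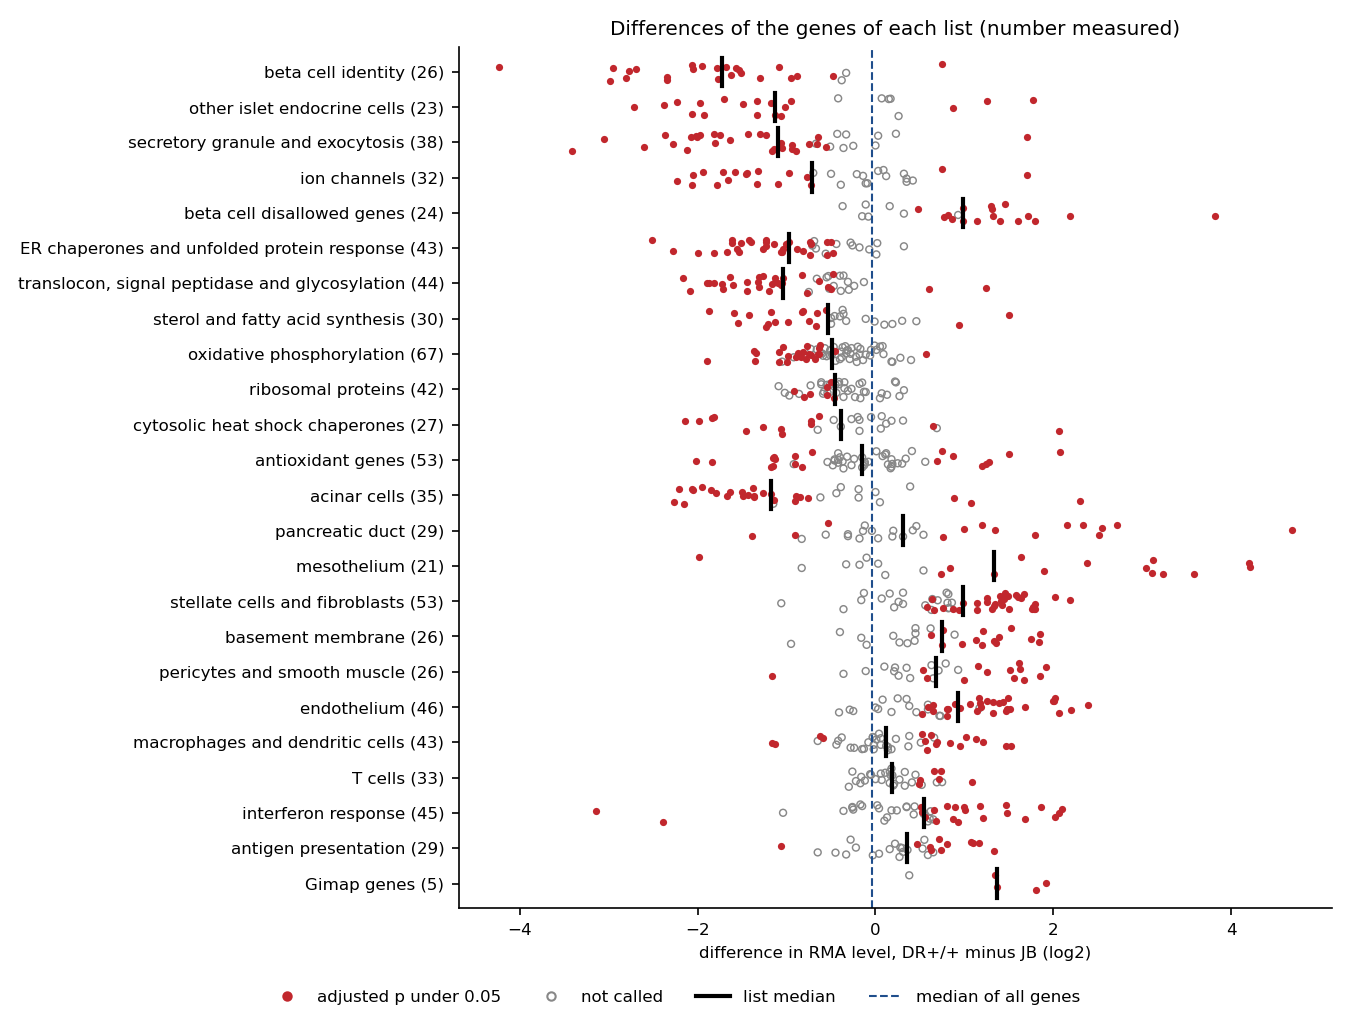
Difference in RMA level between DR+/+ and JB (log2, horizontal axis) for each measured gene of 24 lists, with the number measured in brackets. Filled points were called at an adjusted p under 0.05, the thick bar is the list median and the dashed line the median of all genes at -0.04. Endocrine, endoplasmic reticulum and acinar lists lie to the left, with medians from -0.97 to -1.73 in 6 of these lists, and vessel, fibroblast and mesothelial lists to the right, at 0.68 to 1.33.

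The machinery that folds and exports secretory proteins was lower in DR+/+. Of 43 measured endoplasmic reticulum chaperones and genes of the unfolded protein response, the programme that matches folding capacity to load, 31 were lower and 0 higher (median -0.97). List means were 8.14 and 8.17 in DR+/+, 9.19 and 9.06 in JB and 9.07 to 9.42 on the 6 other arrays. All 31 called genes had both DR+/+ arrays below the other 8. The same held for the 29 of 44 genes called lower in the list of the translocon, signal peptidase and N-glycosylation, the steps by which a nascent chain enters the reticulum, is cleaved and receives its sugars (median -1.04, 2 called higher).

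Hspa5, the master chaperone known as BiP, read 11.3 and 11.41 in DR+/+ and 12.75 and 12.48 in JB (2.39-fold lower, -1.26, SE 0.16, adjusted p = 0.000329). Manf, a secreted factor induced by reticulum stress, read 7.78 and 7.64 against 9.96 and 10.03 (4.87-fold lower, adjusted p = 6.17e-06), and Hyou1, a large chaperone of the same compartment, 6.19 and 6.64 against 8.73 and 9.13 (5.73-fold lower, adjusted p = 0.000319). Manf was at 10.23 or above in the 6 other arrays, so DR+/+ stood apart from all groups there. Hyou1 read 8.43 and 9.58 in JBlyp/lyp but only 6.9 to 7.1 in the F344 groups, so that JB and JBlyp/lyp were high and DR+/+ lay just under F344. Hsp90b1 read 9.99 and 9.84 against 11.34 and 11.74 (3.08-fold lower), and Asns, an amino acid stress gene, 8.15 and 8.22 against 10.31 and 10.05 (3.99-fold lower). Ddit3, the death-linked factor CHOP, read 5.93 and 5.78 against 7.86 and 7.2 (3.19-fold lower), with JB also above the JBlyp/lyp and F344 arrays, whose highest value was 6.76.

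The promoters of this list were searched on either strand for the ER stress element, the letters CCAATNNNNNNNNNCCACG. The stress factor ATF6 is known to bind it together with NF-Y. In RefSeq windows of the GRCr8 build, from 250 bases before to 50 after each gene's start, 7 of the 36 list genes with a promoter held a match (19.4%), against 0.145% of the 11700 measured genes with one. The 7 were Hspa5, Hsp90b1, Dnajc3, Creld2, Xbp1, Canx and Calr, with differences of -1.26, -1.62, -1.23, -1.06, -0.74, -0.50 and -0.48, and all were called lower. The calls of Calr and Canx depended on single arrays: Calr lost its call without DR+/+ replicate 1, DR+/+ replicate 2 or JB replicate 1 (-0.39 to -0.52, adjusted p = 0.0836 to 0.163), and Canx lost its call without DR+/+ replicate 1, JB replicate 1 or JB replicate 2 (-0.40 to -0.52, adjusted p = 0.0796 to 0.166) and stood at -0.11 after quantile normalization. The list was built from genes of this response, so the share with the letters describes the list and not the difference between the groups. Windows of the 3 with the largest differences are shown with the matched letters in capitals, Hspa5 on the plus strand at chr3:38452766-38453065, Hsp90b1 on the minus strand at chr7:23012244-23012543 and Dnajc3 on the plus strand at chr15:102432417-102432716.
Hspa5: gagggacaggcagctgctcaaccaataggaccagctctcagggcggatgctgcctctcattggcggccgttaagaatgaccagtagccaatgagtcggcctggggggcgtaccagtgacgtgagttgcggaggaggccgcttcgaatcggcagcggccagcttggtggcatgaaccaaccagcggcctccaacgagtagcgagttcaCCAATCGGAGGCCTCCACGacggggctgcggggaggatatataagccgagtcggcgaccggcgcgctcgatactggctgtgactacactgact
Hsp90b1: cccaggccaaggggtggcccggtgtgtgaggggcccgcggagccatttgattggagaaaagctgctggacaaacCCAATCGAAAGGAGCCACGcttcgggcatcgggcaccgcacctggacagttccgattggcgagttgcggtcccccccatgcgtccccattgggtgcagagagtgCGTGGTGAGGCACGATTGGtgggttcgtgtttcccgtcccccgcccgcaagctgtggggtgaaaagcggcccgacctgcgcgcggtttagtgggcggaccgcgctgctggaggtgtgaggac
Dnajc3: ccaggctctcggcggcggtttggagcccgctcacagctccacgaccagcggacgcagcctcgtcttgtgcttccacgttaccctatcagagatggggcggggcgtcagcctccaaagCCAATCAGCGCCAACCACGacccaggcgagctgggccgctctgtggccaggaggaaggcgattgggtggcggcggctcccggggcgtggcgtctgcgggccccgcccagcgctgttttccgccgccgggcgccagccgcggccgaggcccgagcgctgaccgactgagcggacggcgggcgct
The match starts 43 bases before the gene's start in Hspa5 and 133 before it in Dnajc3, and Hsp90b1 holds 2, at 176 and, on the opposite strand, 72 bases before the start. Dnajc3, a co-chaperone that restrains the kinase of the stress response, read 7.9 and 8.32 in DR+/+ and 9.65 and 9.04 in JB (-1.23, SE 0.24).

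In the export list, Tmed3, a cargo receptor of transport vesicles, read 7.77 and 7.96 in DR+/+ and 10.15 and 9.92 in JB (4.49-fold lower, adjusted p = 5.39e-05). Ssr4 and Ssr2, subunits of the translocon-associated complex, read 8.17 and 8.01 against 10.05 and 10.31 (4.26-fold lower), and 7.82 and 7.7 against 9.77 and 9.49 (3.65-fold lower). The oligosaccharyltransferase gene Rpn2 stood at -1.90 and the coat protein gene Sec24d at -1.82. Kdelr3, a retrieval receptor, was higher by 1.24, and Srp19 by 0.60, a call lost without DR+/+ replicate 1 or JB replicate 1 (0.48 and 0.51).

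Sterol and fatty acid synthesis genes were lower in 15 of 30 cases and higher in 2 (median -0.53). Acly, which makes cytosolic acetyl-CoA, read 10.18 and 10.21 in DR+/+ and 12.04 and 12.08 in JB (3.64-fold lower, adjusted p = 1.92e-05), and the cholesterol synthesis genes Sc5d, Tm7sf2 and Sqle stood at -1.59, -1.55 and -1.42. Stard4, a sterol carrier, was higher by 1.5, as was Scd, a desaturase, by 0.94, whose call was lost without DR+/+ replicate 1 or JB replicate 2 (0.89 and 0.86). Oxidative phosphorylation genes were lower in 23 of 67 cases and higher in 1 (median -0.49; -0.27 without JB replicate 1), but only 10, 8 and 12 were lower without DR+/+ replicate 1, DR+/+ replicate 2 and JB replicate 1. The complex I subunit gene Ndufa11 read 5.74 and 5.23 against 7.64 and 7.15 (-1.90, SE 0.31) and the complex IV gene Cox8a 9.74 and 9.67 against 11.06 and 11.02 (-1.34, SE 0.16). Sdha, of complex II, was the one called higher (0.57; 0.48 and no longer called without JB replicate 1). Of 42 ribosomal protein genes, 7 were lower and 0 higher (16.7%, near the 18.4% of all genes), 2 without DR+/+ replicate 1, DR+/+ replicate 2 or JB replicate 1, and 1 after quantile normalization. Their median was -0.45, -0.24 without JB replicate 1 and -0.1 after quantile normalization.

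**Figure D3:**
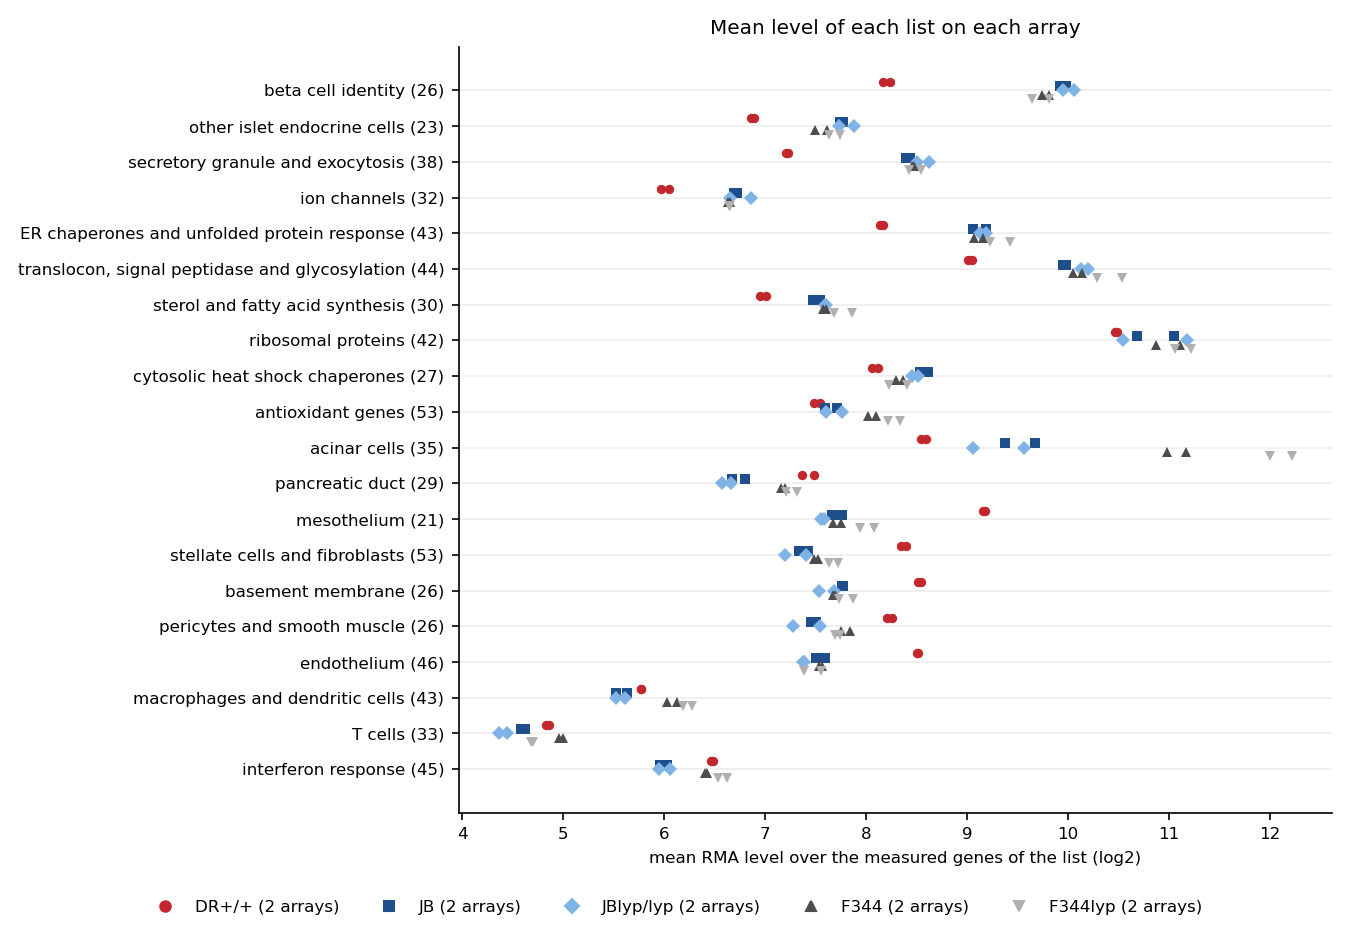
Mean RMA level over the measured genes of 20 lists (log2, horizontal axis), one point for each of the 10 arrays, with the number of genes in brackets and groups by colour and marker. The DR+/+ points lie below all others in the endocrine, reticulum and sterol lists and above all others in the mesothelium, fibroblast, basement membrane, pericyte and endothelium lists, and the acinar list separates the BB groups from F344 and F344lyp.

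Mesothelial, stromal and vessel markers were higher in DR+/+. Of 21 mesothelial genes 13 were higher and 1 lower (median 1.33), and list means were 9.18 and 9.16 in DR+/+, 7.76 and 7.66 in JB and 7.55 to 8.08 on the 6 other arrays. The median was 0.74, with 11 higher and 1 lower, when a gene was read by the median of all its probe sets. The summed signal of the list, in which the brightest genes weigh most, was not higher, with a log2 of 14.67 and 14.67 in DR+/+ and 14.76 and 14.69 in JB. Besides Upk1b, Bnc1, Wt1 and Gpm6a, Lrrn4 read 9.58 and 9.73 against 6.57 and 6.51 (8.7-fold, adjusted p = 4.91e-06). Msln, mesothelin itself, went against the list: it read 10.91 and 10.99 in DR+/+ and 13.01 and 12.88 in JB (3.97-fold lower, adjusted p = 3.25e-05), and at least 12.14 on the other arrays. The keratin genes Krt7, Krt8, Krt18 and Krt19 of the list were not called.

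Of 53 stellate cell and fibroblast genes 33 were higher and 0 lower (median 0.98), with list means of 8.34 and 8.39 in DR+/+ against 7.42 and 7.33 in JB and 7.2 to 7.72 elsewhere. Postn, a matrix protein of activated fibroblasts, read 7.85 and 7.89 in DR+/+ and 5.66 and 6.04 in JB (4.05-fold, adjusted p = 1.6e-05), and Col5a2, a fibrillar collagen, 11.05 and 11.24 against 9.36 and 9.33 (3.48-fold). Pdpn, podoplanin, stood at 1.78, and Lox, the enzyme that crosslinks collagen, at 1.80, a call lost without DR+/+ replicate 1 (1.65, adjusted p = 0.0619). Basement membrane genes were higher in 14 of 26 cases and lower in 0 (median 0.75), with Itga6, a laminin receptor subunit, at 1.85, Col4a5 at 1.84 and Lamb3 at 1.75. Pericyte and smooth muscle genes were higher in 12 of 26 cases and lower in 1 (median 0.68), led by Cspg4, the pericyte proteoglycan NG2 (8.06 and 7.91 against 6.23 and 5.9, 3.78-fold), Hey2 at 1.85 and Abcc9 at 1.67. The one lower was Synpo2 at -1.16, a call lost without DR+/+ replicate 1, DR+/+ replicate 2 or JB replicate 2 (-0.75 to -1.26, adjusted p = 0.114 to 0.238).

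Endothelial genes were higher in 30 of 46 cases and lower in 0 (median 0.93), with list means of 8.51 and 8.5 in DR+/+, 7.5 and 7.59 in JB and 7.37 to 7.56 elsewhere. Gja5, a connexin of arterial endothelium, read 9.55 and 9.53 in DR+/+ and 7.07 and 7.23 in JB (5.25-fold, adjusted p = 3.83e-05). Tek, the angiopoietin receptor, read 11.68 and 11.65 against 9.25 and 10.06 (4.03-fold, adjusted p = 0.000695), and Sox17, an endothelial transcription factor, 9.71 and 9.9 against 7.39 and 8.08 (4.2-fold). Clec14a stood at 2.2 and Cldn5, the claudin of tight vessel walls, at 2.02. For all 5 the DR+/+ arrays lay above the 8 others. The falls of endocrine genes and the rises of these mesothelial, stromal and vessel markers were thus seen on the same 2 arrays, and the part of either in the other was not tested.

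Markers of the exocrine pancreas differed in both directions. Acinar genes were lower in 23 of 35 cases and higher in 3 (median -1.18), with list means of 8.59 and 8.54 in DR+/+ and 9.67 and 9.37 in JB, and 10.98 to 12.22 in the F344 groups. Prss2, a trypsinogen, read 8.05 and 7.96 in DR+/+ and 10.34 and 10.2 in JB (4.81-fold lower, adjusted p = 5.28e-05), and the chymotrypsin family genes Ctrb1, Ctrc and Ctrl stood at -2.21, -2.16 and -2.06. The 3 higher were Nr5a2, a nuclear receptor shared with duct and progenitor cells (8.52 and 8.57 against 6.23 and 6.27, 4.91-fold), Gatm at 1.08 and Dmbt1 at 0.88. Duct genes were higher in 11 of 29 cases and lower in 3 (median 0.31; 0.18 without DR+/+ replicate 2, 0.49 with a Gapdh covariate and 0.2 by the median of a gene's probe sets), and besides Slc26a3 the ion transporters of bicarbonate secretion were among them. Cftr, the chloride channel of cystic fibrosis, read 8.7 and 8.8 in DR+/+ and 6.51 and 6.32 in JB (5.05-fold, adjusted p = 6.49e-06), and Slc4a4, the sodium bicarbonate cotransporter, 9.4 and 9.65 against 6.83 and 7.19 (5.7-fold). The duct transcription factor Onecut1 stood at 2.72 and the tetraspanin Tspan8 at 2.55. The 3 lower were Ambp at -1.39, Cldn7 at -0.91 and Anxa4 at -0.53, of which Cldn7 lost its call without DR+/+ replicate 1 (-0.60) and Anxa4 without any 1 of the 4 arrays (-0.51 to -0.55). Of the duct keratins, Krt7, Krt8, Krt18 and Krt19 were not called, and Krt20 was called higher (4.99 and 5.26 against 4.1 and 4.15).

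Lists of other tissues gave shares nearer to those of all genes, 15.5% higher and 18.4% lower. Intestinal epithelium genes were higher in 7 of 29 cases and lower in 3 (median 0.07; 4 higher without DR+/+ replicate 2), with Cdh17 at 1.82 and Vil1, the brush border protein villin, at -2.06. Adipocyte genes were higher in 7 of 27 cases and lower in 5 (median -0.03), with 2 higher and 4 lower without DR+/+ replicate 1 and 4 of each without JB replicate 2. Nerve and Schwann cell genes were higher in 5 of 28 (17.9%) and lower in 6 (21.4%), with a median of -0.07. Among the nerve genes, the neuronal genes Elavl4 and Uchl1, which islet endocrine cells also express, stood at -2.89 and -2.07, and Pmp22, a myelin gene that fibroblasts express, at 1.49. In the list of the regenerating genes, 2 of 4 were called higher, Reg3b at 0.69 and Reg3g at 0.52, and neither call held without DR+/+ replicate 1 or JB replicate 1.

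Gimap5, the gene mutated at lyp, was measured first among the immune genes because neither group is labelled as mutated there. It read 8.22 and 8.41 in DR+/+ and 7.05 and 5.95 in JB (3.52-fold higher, 1.81, SE 0.29, adjusted p = 0.00119), with JB replicate 1 near the F344 arrays at 7.03 and 6.82 and JB replicate 2 near those of JBlyp/lyp at 5.95 and 5.65. The JB arrays thus spread by more than 1 on the log2 scale, and DR+/+ was above all 8. Of the 5 measured Gimap genes, GTPases of lymphocyte survival that lie together in the genome, 4 were higher, with Gimap1 at 1.92, Gimap7 at 1.37 and Gimap6 at 1.34. Gimap4 was not called. Endothelial cells also express Gimap genes, and Gimap4 stands in the endothelial list.

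T cell genes were higher in 6 of 33 cases and lower in 0 (median 0.19), which is a share of 18.2% beside 15.5% of all genes, and 3 were higher without DR+/+ replicate 2. Tcf7, a T cell transcription factor, read 6.47 and 7.1 against 5.57 and 5.81 (1.09, SE 0.21), and Cd3d, a chain of the T cell receptor complex, 6.35 and 6.44 against 5.64 and 5.66 (0.74, SE 0.13, adjusted p = 0.00167). Cd3d lay within the range of the other 8 arrays, and Tcf7 had 1 DR+/+ array within it and the other above it. B and plasma cell genes were higher in 7 of 18 cases and lower in 2 (median 0.35; 0.21 without JB replicate 2 and 0.18 by the median of a gene's probe sets), with Prdm1 at 1.92, Sdc1 at 1.91, Cr2 at 1.60, Ebf1 at 1.44 and Jchain at 1.37. Sdc1 is also made by epithelia and Ebf1 by stromal cells. The 2 lower, Fcmr at -0.73 and Blnk at -0.41, lost the call without DR+/+ replicate 1, DR+/+ replicate 2 or JB replicate 1, and Blnk also without JB replicate 2. Macrophage and dendritic cell genes were higher in 13 of 43 cases and lower in 4 (median 0.12), with 8, 7 and 8 higher without DR+/+ replicate 1, DR+/+ replicate 2 and JB replicate 2. Mpeg1, a pore-forming protein of macrophages, stood at 1.52, and Flt3, a dendritic cell growth factor receptor, at 1.21.

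The complement genes C1qa and C1qc, products of resident macrophages, were lower at -1.13 and -1.16, as were Mrc1 at -0.62 and Cd163 at -0.59. Of these 4, C1qa (4.93 and 5.38 against 6.43 and 6.14) kept its call without each of the 4 arrays. C1qc and Mrc1 lost theirs without DR+/+ replicate 1 or JB replicate 1, C1qc also without DR+/+ replicate 2, and Cd163 without any 1 of the 4. In the granulocyte and mast cell list 2 of 26 were higher (Gata2 at 0.91 and S100a9 at 0.59) and 2 lower (Mcpt1 at -0.62 and Cxcr2 at -0.46), of which all but Gata2 lost the call without at least 1 array, and among 15 erythroid genes Gypc was higher by 1.26 while Hbb and Hbg1, haemoglobin genes, were lower at -1.17 and -0.61. The call of Hbg1 was lost without DR+/+ replicate 1, DR+/+ replicate 2 or JB replicate 1. Granulocyte and mast cell shares were 7.69% either way and erythroid shares 6.67% higher and 13.3% lower, below the 15.5% and 18.4% of all genes.

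Interferon response genes, which cells switch on against viruses, were higher in 20 of 45 cases (44.4%) and lower in 2 (4.44%), with a median of 0.55. Of all genes 15.5% were higher and 18.4% lower. List means were 6.48 and 6.46 in DR+/+, 6.03 and 5.96 in JB and 5.95 to 6.62 elsewhere, so that DR+/+ lay close to F344 and JB close to JBlyp/lyp. Bst2, tetherin, an antiviral membrane protein, read 8.98 and 9.14 in DR+/+ and 7.05 and 7.02 in JB (4.06-fold, adjusted p = 1.18e-05), Rtp4 8.14 and 7.92 against 5.91 and 5.95 (4.27-fold), and Gbp2, a guanylate-binding protein, 6.55 and 6.59 against 4.61 and 4.4 (4.19-fold). Each was above all 8 other arrays in DR+/+. Cxcl10 and Cxcl11, chemokines that draw T cells through the receptor Cxcr3, went the other way. Cxcl10 read 5.01 and 4.96 in DR+/+, 7.86 and 8.4 in JB, 7.79 and 7.59 in JBlyp/lyp and 5.31 to 6.36 in the F344 groups (8.85-fold lower than JB, adjusted p = 1.26e-05). Cxcl11 read 6.02 and 6.63 against 8.44 and 8.98 (5.24-fold lower, adjusted p = 7.68e-05), with 8.75 and 8.89 in JBlyp/lyp and 7.63 to 8.04 in the F344 groups. The 2 chemokines were thus high in JB and JBlyp/lyp and lowest in DR+/+, while Bst2, Rtp4 and Gbp2 were highest in DR+/+. Not all genes of the list followed them. Of its 22 called genes, 15 had both DR+/+ arrays outside the range of all others, the 2 chemokines among them, beside 85.5% of all called genes.

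The letters GAAANNGAAA, the core of the interferon-stimulated response element, were found on either strand in the promoter windows of 21 of the 35 interferon genes with one (60.0%), against 3.21% of the 11700 measured genes. They were in 9 of 17 list genes called higher (52.9%), 1 of 2 called lower and 11 of 16 not called (68.8%), so the letters did not separate the genes that were higher from those that were not. The windows of Cxcl10, lower in DR+/+, on the plus strand at chr14:15988816-15989115, and of Bst2, higher in DR+/+, on the minus strand at chr16:18254918-18255217, are shown with the matches in capitals.
Cxcl10: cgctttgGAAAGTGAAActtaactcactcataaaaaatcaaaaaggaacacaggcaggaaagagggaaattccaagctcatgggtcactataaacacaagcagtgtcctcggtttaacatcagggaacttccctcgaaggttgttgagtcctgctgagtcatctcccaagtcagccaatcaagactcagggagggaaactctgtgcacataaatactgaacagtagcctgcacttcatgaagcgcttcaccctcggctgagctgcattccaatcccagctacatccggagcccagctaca
Bst2: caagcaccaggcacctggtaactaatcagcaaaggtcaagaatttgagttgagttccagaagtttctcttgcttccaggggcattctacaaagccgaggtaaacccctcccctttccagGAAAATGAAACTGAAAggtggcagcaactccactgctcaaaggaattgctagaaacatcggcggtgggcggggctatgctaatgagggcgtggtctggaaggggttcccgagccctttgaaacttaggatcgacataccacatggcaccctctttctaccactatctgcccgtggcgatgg
In Cxcl10 the match starts 243 bases before the gene's start, and in Bst2 a pair of overlapping matches starts 131 and 125 bases before it.

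Antigen presentation genes were higher in 10 of 29 cases and lower in 1 (median 0.36), with 5 higher without DR+/+ replicate 1. The class I genes of the rat RT1 complex led them, with RT1-S3 at 1.33 and RT1-CE5 at 1.07, beside Cd1d1, which presents lipids, at 1.10. RT1 genes share probes among near-identical copies and differ in sequence between stocks, so their values are uncertain. Hfe, an iron regulator of the same family, was the one lower, at -1.06. The shares of antigen presentation genes were 34.5% higher and 3.45% lower, beside 15.5% and 18.4% of all genes. Chemokine and inflammation genes were higher in 17 of 65 cases (26.2%) and lower in 3 (4.62%), with a median of 0.10. Besides Ptgs2 and Cxcl12, Icam1, an adhesion molecule of activated endothelium, read 8.66 and 8.9 against 6.94 and 7.32 (3.14-fold, adjusted p = 9.15e-05), and Il33, an alarm cytokine of endothelium and stroma, 9.98 and 9.89 against 7.74 and 8.5 (3.51-fold, adjusted p = 0.00118). The third of the lower genes, after the 2 chemokines, was Il1r1, the interleukin 1 receptor that beta cells carry at a high level (8.86 and 8.72 against 10.01 and 10.55, 2.81-fold lower).

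The study asked whether BB islets differ in their capacity to deal with oxidative stress, and DR+/+ and JB differed in single genes of that kind more than as a group. Of 53 antioxidant genes 8 were higher (15.1%) and 11 lower (20.8%), near the 15.5% and 18.4% of all genes, with a median of -0.15. Prdx4, a peroxiredoxin of the endoplasmic reticulum, read 8.57 and 8.54 in DR+/+ and 8.96 and 8.38 in JB (-0.12, SE 0.27, 95% confidence interval -0.73 to 0.49), and Sod2, the mitochondrial superoxide dismutase, 6.36 and 6.7 against 6.67 and 6.63 (-0.12, interval -0.48 to 0.23). Cat, catalase, read 8.12 and 8.3 against 8.4 and 8.19 (-0.08, interval -0.46 to 0.30). These 3 were not called and their groups overlapped, and the intervals still hold differences of up to 0.73 on the log2 scale for Prdx4.

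Gpx4, the peroxidase that reduces lipid peroxides, read 7.53 and 7.44 in DR+/+ and 8.63 and 8.18 in JB (-0.92, SE 0.34, adjusted p = 0.0703), without overlap and without a call, and it was called with only the 4 arrays in the fit (adjusted p = 0.0169) or with the replicate number as a block (adjusted p = 0.0311). Called genes of the list lay on both sides, the glutathione peroxidases included. Gpx3, the secreted glutathione peroxidase, read 7.94 and 7.65 against 9.99 and 9.64 (4.05-fold lower, adjusted p = 7.62e-05), Sod1, the cytosolic superoxide dismutase, 10.26 and 10.32 against 11.42 and 11.45 (2.2-fold lower) and Sesn2, a stress-induced sestrin, 7.6 and 7.63 against 9.65 and 9.25 (3.57-fold lower). Gpx8, a peroxidase of the endoplasmic reticulum, read 9.45 and 9.79 against 7.63 and 7.46 (4.22-fold higher, adjusted p = 2.75e-05), and Nfe2l2, the transcription factor NRF2 that drives antioxidant genes, 9.49 and 9.59 against 8.29 and 8.31 (2.36-fold higher, adjusted p = 0.000149). For each of these 5, both DR+/+ arrays lay outside the range of the other 8. Gpx2, the epithelial peroxidase, was higher by 1.5, a call lost without either DR+/+ array.

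Glutathione transferases, which attach glutathione to reactive compounds, were higher in 7 of 23 cases (30.4%) and lower in 5 (21.7%), with a median of 0.10. Of all genes 15.5% were higher and 18.4% lower, so the lower share was near that of all genes. Gstt3 read 8.69 and 8.54 in DR+/+ and 6.21 and 5.92 in JB (5.88-fold, adjusted p = 3.01e-05), and the microsomal enzymes Mgst1 and Mgst2 stood at 1.77 and 1.41. Gstz1, a transferase of tyrosine breakdown, read 7.85 and 7.64 against 9.07 and 9.8 (3.22-fold lower, adjusted p = 0.000324). For Gstt3, Mgst1 and Mgst2 the JB and JBlyp/lyp arrays were the lowest of the 10.

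Cytosolic heat shock chaperones were lower in 11 of 27 cases (40.7%) and higher in 2 (7.41%), beside 18.4% and 15.5% of all genes. The median was -0.39, and -0.23 after quantile normalization. Dnajb1 read 10.28 and 10.15 in DR+/+ and 12.28 and 12.43 in JB (4.42-fold lower, adjusted p = 7.3e-05), 11.29 and 11.93 in JBlyp/lyp and 9.51 to 10.67 in the F344 groups. Hspa1a, the stress-inducible HSP70, read 10.6 and 10.42 against 12.39 and 12.6 (3.96-fold lower, adjusted p = 1.67e-05), with 9.95 to 11.59 on the other arrays, and Hsph1 9.41 and 9.34 against 11.26 and 11.13 (3.53-fold lower). For the brightest probe sets of Dnajb1, Hspa1a and Hsph1, JB stood at the top and DR+/+ lay within or just under the F344 groups. A dimmer probe set of Dnajb1 read 5.86 and 5.34 in DR+/+ and 9.84 and 9.71 in JB (-4.18). The F344 groups read 6.84 to 8.32 there, so DR+/+ stood apart on that probe set. Of the 13 called genes of the list, 10 had both DR+/+ arrays outside the range of all others, Hsph1 among them, beside 85.5% of all called genes. Hspa4l, for example, read 5.31 and 5.81 in DR+/+ and 7.42 and 7.36 in JB (-1.84, SE 0.2), with 7.2 to 7.81 on the other arrays. The heat shock element GAANNTTCNNGAA was in the promoter window of 5 of the 23 list genes with one, on either strand, against 0.487% of measured genes. It was in 4 of the 10 list genes called lower (Hsph1, Hspd1, Dnaja1 and Hspe1), 0 of 2 called higher and 1 of 11 not called. Over all genes it was in 0.596% of those called lower and 0.508% of those called higher. The list is one of heat shock chaperones, so the share with the letters describes the list, and a link to the falls was not tested. Hspb8, a small heat shock protein of muscle and stroma, was higher (6.9 and 7.04 against 4.95 and 4.87, 4.18-fold), and Hspa2 was higher by 0.65, a call lost without DR+/+ replicate 1, JB replicate 1 or JB replicate 2.

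**Figure D4:**
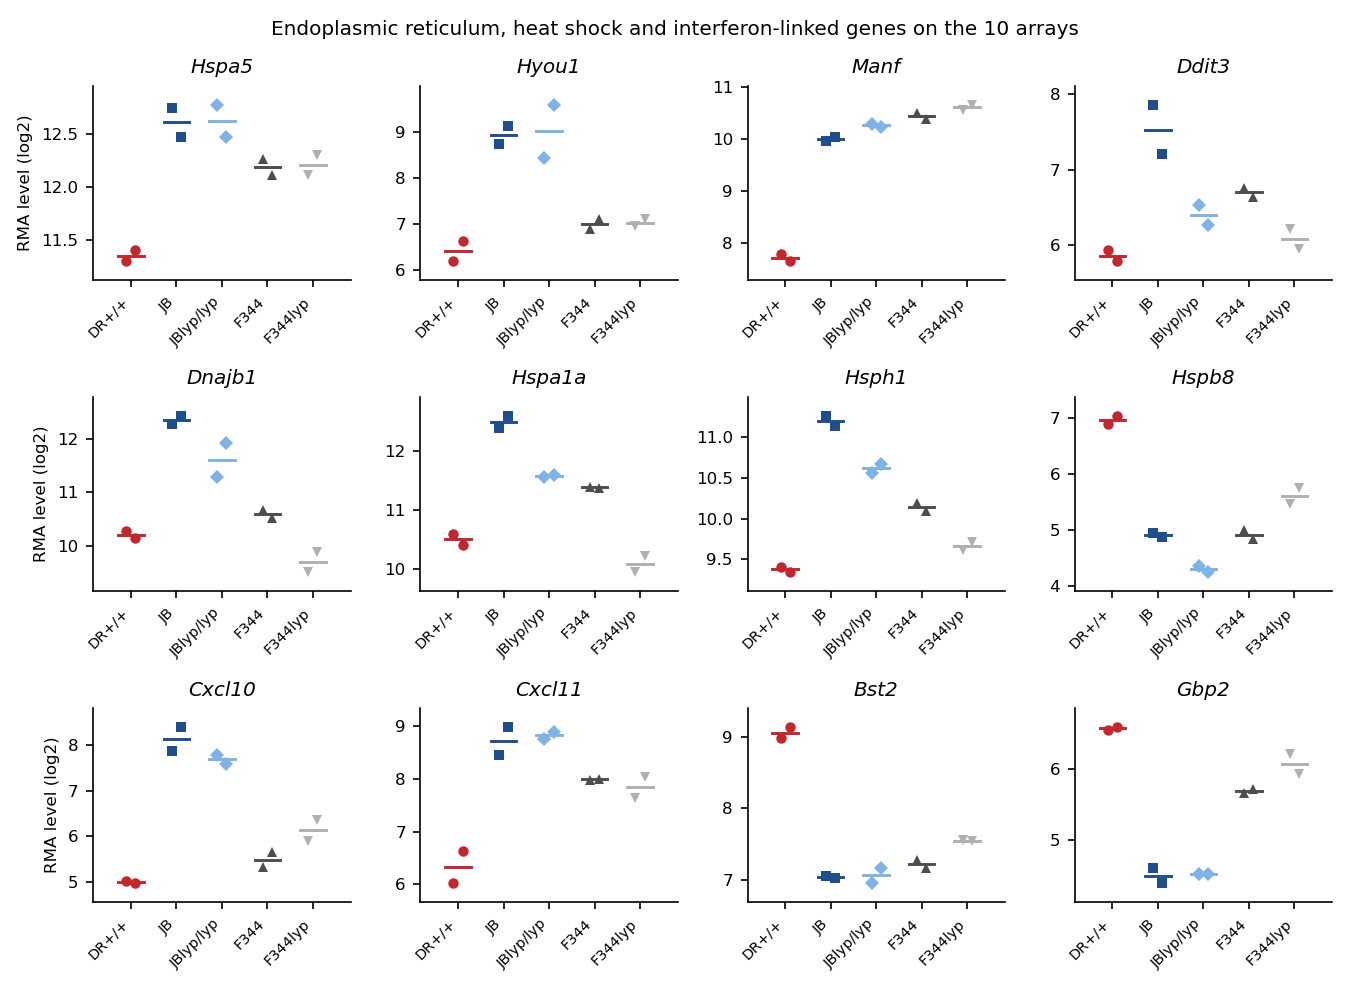
RMA level (log2, vertical axis, a separate scale for each gene that does not start at 0) of 12 genes on the 10 arrays, with points for arrays and a bar for each group's mean. Hspa5 and Manf are lowest in DR+/+ with the other groups close together, while Hyou1, Dnajb1, Hspa1a and Hsph1 are highest in JB or JBlyp/lyp, and in the bottom row Cxcl10 and Cxcl11 are high in JB and JBlyp/lyp where Bst2 and Gbp2 are high in DR+/+.

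Immediate early genes, switched on within minutes of a stimulus, were higher in 9 of 49 cases (18.4%; 5 without DR+/+ replicate 1) and lower in 8 (16.3%), near the 15.5% and 18.4% of all genes, with a median of 0.06. Nr4a3 was higher (9.24 and 9.13 against 6.67 and 7.71, 3.98-fold), and Rgs2, a brake on G protein signals (7.41 and 7.47 against 9.52 and 9.77, 4.62-fold), Arc at -1.48 and Fosb at -1.31 were lower. The call of Fosb was lost without DR+/+ replicate 2 (-1.23, adjusted p = 0.0511). Clock genes were higher in 4 of 17 cases and lower in 5 (median -0.26; 3 lower without either DR+/+ array), with Rora at -2.19 and Bhlhe41 at -1.48. The clock shares were 23.5% higher and 29.4% lower, beside the 15.5% and 18.4% of all genes. The hour at which islets were taken is not given in the sources used here.

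Hypoxia and glycolysis genes were higher in 7 of 35 cases (20.0%) and lower in 10 (28.6%), beside 15.5% and 18.4% of all genes. The median was -0.13, and -0.21 without JB replicate 1. Eno2, the neuroendocrine enolase, stood at -1.95, Vegfa, the vessel growth factor of beta cells, at -1.68, and Egln3 at 1.31. Cell cycle genes were higher in 9 of 56 cases (16.1%, near the 15.5% of all genes) and lower in 4 (7.14%; median 0.17), 3 and 4 without DR+/+ replicate 1. Ccnd2, the cyclin that rodent beta cells need to divide, was lower (8.26 and 9.16 against 11.11 and 10.94, 4.97-fold, adjusted p = 0.000357), as were the cyclin inhibitors Cdkn1a at -1.35 and Cdkn1b at -0.89 and the kinase Cdk4 at -1.23, and Cdkn1c was higher by 1.59. Apoptosis genes were higher in 6 of 33 cases (18.2%, near the 15.5% of all genes) and lower in 0 (median 0.10). Among the 6 were the caspase genes Casp12, Casp1, Casp4, Casp2 and Casp8 at 1.99, 1.56, 1.36, 1.35 and 1.07. Casp2 lost its call without DR+/+ replicate 1, DR+/+ replicate 2 or JB replicate 1 (0.71 to 1.38) and Casp8 without DR+/+ replicate 2 or JB replicate 2 (0.73 and 0.78). Proteasome genes were lower in 9 of 33 cases (27.3%) and higher in 1 (3.03%), beside 18.4% and 15.5% of all genes. The median was -0.11, and -0.07 without JB replicate 1, and Psmc2 stood at -1.08. The one higher, Psma3 at 0.52, lost its call without DR+/+ replicate 1, DR+/+ replicate 2 or JB replicate 1.

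The levels in the other groups showed 2 kinds of difference between DR+/+ and JB, and many genes belonged to both. For most called genes DR+/+ was the group apart, as given above. For 1024 called genes (21.2%, against 10.2% of all genes) the 4 JB and JBlyp/lyp arrays lay outside the range of the other 6, 595 of them below it and 429 above it, and for 447 of these DR+/+ did not stand apart. Cxcl10, Hyou1, Dnajb1, Hspa1a, Rora and Prlr were among those with high levels in JB and JBlyp/lyp, and Gstt3, Mgst1, Gbp2 and Cftr among those with low levels. By their brightest probe sets, only Dnajb1, Hspa1a and Rora of these examples did not also have DR+/+ apart from all other arrays. On the dimmer probe set of Dnajb1, DR+/+ was apart. JB and JBlyp/lyp arrays of the same replicate number also deviated together from their group means (r = 0.652 across probe sets), where DR+/+ and JB did not (r = -0.0887). The fit treated the deviations of all groups as independent, so its 5 residual degrees of freedom may overstate what is known of the spread behind the p-values.

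Genes with a difference did not lie in long blocks. Of called genes with a measured next gene on the chromosome, the next was called the same way for 19.1% of the higher genes (15.6% of all ordered genes were higher) and for 22.5% of the lower genes (18.4%). The longest run among 14161 ordered genes was 7 lower neighbours, from Slc38a7 to Csnk2a2, and a run of 6 was the trypsinogen cluster, whose members share near-identical sequence. The named called genes had 91 further probe sets, of which 69 differed in the same direction as the brightest, 39 were called the same way and 1 the opposite way.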

How the data were processed

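Islet RNA was measured on 10 Affymetrix rat arrays, 2 for each of 5 groups, and the title of each sample gave its group and replicate number. The deposited values are RMA log2 intensities for which the submitters' processing notes, as the labels carry them, name GCOS and RMA, with versions not given in the sources used here. RMA sets the arrays to a common distribution, so an overall rise or fall in RNA is not seen, and the number of arrays limits the precision. After removal of 57 of 31099 probe sets, one mean per group was fitted to 31042 probe sets on all 10 arrays in limma 3.58.1 (R 4.3.3), with 5 residual and 4.72 prior degrees of freedom. The DR+/+ minus JB contrast was tested with p-values adjusted by Benjamini and Hochberg's method over all 31042 and a threshold of 0.05, and adjusted p-values in the text come from this test unless an alternative is named beside them. The fit was checked on simulated data. P-values measure the spread between arrays, which may be in part technical.

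The platform annotation gave 1 symbol to 20826 probe sets, several to 436 and none to 9780. A gene was read by its probe set with 1 symbol and the highest mean over the 10 arrays, which left 14217 genes. The genes named were the 15 largest characterised rises and falls, up to 5 called members of each of 39 lists with the largest differences, and 13 fixed genes called or not: Ins1, Ins2, Iapp, Gcg, Sst, Ppy, Gimap5, Pdx1, Mafa, Prdx4, Gpx4, Sod2 and Cat. Hspa5, Hsp90b1, Dnajc3, Msln, Isl1, Nkx6-1, Icam1, Sod1, Nfe2l2, Ldha and members named in small counts or for a promoter match were chosen after their values were seen. The groups, genes and lists were chosen with earlier results of these data known. Folds are powers of 2 of log2 differences. Promoter windows came from RefSeq tables of the GRCr8 build and were searched on both strands. Replicate numbers did not pair the DR+/+ and JB arrays (correlation of deviations -0.0887). Alternatives were the 4 arrays alone, each array left out, a replicate block, quantile normalization, median centring, a mean of at least 6, a mean-variance trend, a Gapdh covariate, a log2 difference of at least 1 and the median of a gene's probe sets. Plots used matplotlib 3.10.9.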

Additional observations from a re-analysis of the deposited data

How the results depend on the processing

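Against 8793 probe sets called (4028 higher, 4765 lower), the total was 7287 with the 4 arrays alone and 6148 to 9903 with any 1 of the 10 arrays left out. It was 8795 after median centring (4258 higher, 4537 lower) and 9096 after quantile normalization (4585 higher, 4511 lower), where the higher calls outnumbered the lower. These totals do not say how many probe sets they share. With a mean level of at least 6 the counts were 5743 in all and 2183 higher, and with a log2 difference of at least 1 they were 4050, 1897 higher and 2153 lower. The replicate block, which has no support in a pairing of DR+/+ with JB, called 9643 (4360 higher, 5283 lower), raised the ribosomal count from 7 to 11 and lost no call of a named gene. Of 244 named called genes, 194 were called under every alternative run on them. These were the 4 arrays alone, each of the 4 left out, the replicate block, quantile normalization, median centring, the mean-variance trend and the Gapdh covariate. Of 39 lists, 21 kept their counts within 1.5 times under every alternative run on them. For lists, the mean of at least 6 and the median of a gene's probe sets took the place of the mean-variance trend. The log2 difference of at least 1 and the removal of an array of another group were applied to the total counts only.

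With 1 of the 4 arrays left out in turn, the lists that moved by more ranged over 8 to 19 lower for oxidative phosphorylation, 2 to 6 for ribosomal proteins, 4 to 7 for the proteasome, 3 to 5 for the clock, 6 to 9 for hypoxia and 1 to 2 for erythroid genes. Counts of higher genes ranged over 0 to 1 for regenerating genes, 4 to 6 for intestine, 2 to 5 for adipocytes, 3 to 6 for T cells, 7 to 12 for macrophages, 1 to 2 for granulocytes, 5 to 8 for immediate early genes, 3 to 9 for the cell cycle and 5 to 11 for antigen presentation. The adipocyte value of 2 higher, with 4 lower, turned the balance of that list. With the 4 arrays alone, regenerating genes gave 0, intestine 4, granulocytes 1 and cell cycle 4 higher and erythroid genes 1 lower. With a mean of at least 6, fewer genes were tested: regenerating 1, duct 7, intestine 1 (3 lower), adipocytes 3, T cells 1, macrophages 7, granulocytes 1, apoptosis 3 and Gimap 2 higher, and erythroid 1 lower. With the Gapdh covariate, regenerating 0, adipocytes 4, T cells 3, granulocytes 1 and cell cycle 5 were higher and erythroid 1, oxidative phosphorylation 12, ribosomal 2, proteasome 4 and clock 3 lower. After quantile normalization, oxidative phosphorylation gave 13 and ribosomal proteins 1 lower. The cause of these moves was not tested.

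Of genes without a call, Cat, Prdx4 and Sod2 ranged over -0.19 to 0.03, -0.41 to 0.17 and -0.29 to 0.05 with 1 array left out. Cat reversed to 0.01 without DR+/+ replicate 1, 0.03 without JB replicate 1 and 0.01 after quantile normalization, Prdx4 to 0.17 without JB replicate 1 and Sod2 to 0.05 without DR+/+ replicate 1. With 2 arrays a group, small differences and levels near background could not be resolved.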
